A study of Mus musculus with 4 samples.

Results

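The genes described here encode the protein subunits of oxidative phosphorylation, the process by which mitochondria burn reduced carriers with oxygen to make ATP. Members were taken by symbol from the GENCODE M21 annotation of the mouse genome: protein-coding genes whose names begin with Nduf and a subunit class (a, b, c, s or v), the 4 Sdh genes, and genes beginning with Uqcr, Cox4 to Cox8 or Atp5, with Ndufa4l2 left out. The rule found 83 nuclear genes among the 43432 in the count table, 36 for complex I, 4 for complex II, 8 for complex III, 18 for complex IV and 17 for complex V. The 13 protein-coding genes of mitochondrial DNA were kept as a separate group, which makes 96 members in all. The rule used names only and no measured value, so it also took in Cox7a2l and Atp5s, which are not subunits.

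The samples were 4 subcutaneous tumours of 9464D-GD2 neuroblastoma cells in female C57BL/6 mice. The age of the mice is not given in the sources used here. The 9464D parent line comes from a mouse that carries a human MYCN transgene, and 9464D-GD2 cells carry the ganglioside GD2 on their surface. Both groups received 25 µg dinutuximab, a monoclonal antibody against GD2, so no untreated tumour stands beside them. In the sEV group each dose also held 20 µg of small extracellular vesicles (sEVs), membrane particles that the same 9464D-GD2 line releases. Mice were dosed 2 times per week, 5 treatments in all, and 2 tumours per group, numbered 3 and 4 in each, were called biological replicates in the series design. The comparison asks what added sEVs altered in tumours under the antibody.

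Oxidative phosphorylation runs through 5 protein complexes of the inner mitochondrial membrane. Complex I (NADH dehydrogenase) and complex II (succinate dehydrogenase) pass electrons to coenzyme Q, complex III passes them to cytochrome c, and complex IV (cytochrome c oxidase) passes them to oxygen. Complexes I, III and IV pump protons, and complex V (ATP synthase) uses the proton flow to make ATP. Most subunits are encoded in the nucleus, while a few hydrophobic core subunits of complexes I, III, IV and V are encoded in mitochondrial DNA, so the complexes need transcripts from both genomes. Tumour cells with active MYC family genes often carry high levels of these transcripts.

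Copies of mitochondrial DNA also sit in nuclear chromosomes as pseudogenes, and one pair of sequences shows how close they are. The first 80 bases of mt-Co2, which encodes the second core subunit of complex IV, are shown beside those of the nuclear pseudogene Gm28661, from the GENCODE M21 transcripts (GRCm38), chrM:7013-7092 on the plus strand and chr1:24615486-24615565 on the minus strand. No base is in capitals because the 681 bases compared hold 0 mismatches.
mt-Co2: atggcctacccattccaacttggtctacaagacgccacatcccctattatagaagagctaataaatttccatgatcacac
Gm28661: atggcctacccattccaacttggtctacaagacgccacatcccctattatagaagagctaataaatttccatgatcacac

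For contrast, 80 bases of mt-Co1, the catalytic core subunit of complex IV, are shown beside its pseudogene Gm13340, at the stretch with most mismatches, which are in capitals. The coordinates are chrM:5782-5861 on the plus strand and chr2:22589114-22589193 on the minus strand. This stretch holds 5 of the 37 mismatches found over 1545 bases. A shorter pseudogene of mt-Co1 on chromosome 1, Gm29216, has 6 mismatches over 492 bases.
mt-Co1: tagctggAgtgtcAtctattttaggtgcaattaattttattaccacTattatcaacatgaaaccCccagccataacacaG
Gm13340: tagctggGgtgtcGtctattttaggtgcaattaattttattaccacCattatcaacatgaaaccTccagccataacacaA

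Nuclear members share promoter elements to a limited extent. RefSeq start-site windows (GRCm38.p6, 250 bases before to 50 after each start) matched 68 of the 83 nuclear members, and short motifs were searched on both strands. The NRF1 motif GCGCATGCG, named for a transcription factor of respiratory genes, stood in at least 1 window of 8 of the 68 members (11.8%), against 2.61% of 17492 protein-coding genes. The YY1 motif AAGATGGCG stood in 7 (10.3%, against 2.14%), and the ETS motif CCGGAAGT, read by GABP, in 5 (7.35%, against 5.69%). The CRE motif TGACGTCA stood in 4 (5.88%, against 2.54%) and the ERR motif TCAAGGTCA in 2 (2.94%, against 0.377%). In 6 of the 7 members with it, the YY1 motif began between 23 and 36 bases into the transcript, on the gene's own strand, with the start site counted as 1. The letters of the 5 motifs do not contain one another, and a match is a description of the sequence only.

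The window of Uqcr11, a small subunit of complex III, is shown because it holds 2 of the motifs, ETS from position -66 and NRF1 on the other strand from position -5, both in capitals. It lies at chr10:80406772-80407071 on the minus strand. That of Atp5j2, the f subunit of the ATP synthase membrane part, holds the YY1 motif from position 24, in capitals, and lies at chr5:145191492-145191791 on the minus strand.
Uqcr11: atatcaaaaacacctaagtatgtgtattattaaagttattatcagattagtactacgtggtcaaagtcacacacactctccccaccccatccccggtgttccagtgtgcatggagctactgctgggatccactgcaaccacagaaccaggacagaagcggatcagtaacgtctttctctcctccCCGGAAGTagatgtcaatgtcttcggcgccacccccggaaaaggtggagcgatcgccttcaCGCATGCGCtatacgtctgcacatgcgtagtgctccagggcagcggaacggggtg
Atp5j2: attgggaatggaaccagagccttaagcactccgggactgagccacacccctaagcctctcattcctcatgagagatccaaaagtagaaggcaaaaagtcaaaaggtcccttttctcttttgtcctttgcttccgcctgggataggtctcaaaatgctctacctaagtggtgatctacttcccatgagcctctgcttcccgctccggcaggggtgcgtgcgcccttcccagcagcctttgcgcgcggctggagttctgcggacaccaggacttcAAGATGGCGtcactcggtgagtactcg

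The libraries held 26312447 and 24452699 counts in the dinutuximab tumours 3 and 4, and 26164711 and 28187573 in the sEV tumours 3 and 4, with 18818 to 19164 genes detected. Of the adrenergic neuroblastoma markers, 5 of 13 passed the filter on low counts. Hand2 and Isl1, transcription factors of sympathetic nerve cells, were present, with Hand2 at 145 to 172 CPM, while Dbh, which makes noradrenaline, had 0 counts in every library. The 8 macrophage markers summed to 1510 and 1578 CPM in the dinutuximab group and 1772 and 1795 CPM in the sEV group. Of the 8, 7 were higher on average with sEVs and 1 lower, and in 4 the groups did not overlap and were higher (18.1% of all genes). By edgeR 1 of the 8 was higher at an unadjusted p under 0.05, where 2.47% of all genes were, and 0 passed after adjustment. In such bulk tissue, fewer cells of a type and less RNA per cell cannot be told apart.

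Expression of the nuclear subunits as a whole differed little between the groups and more between the 2 tumours given dinutuximab. The 83 nuclear members took 1.61% and 1.40% of all counts in dinutuximab tumours 3 and 4, and 1.51% and 1.47% in sEV tumours 3 and 4 (95% Wilson intervals within 0.01 of each value, which cover counting error only). Dinutuximab tumour 3 was highest and dinutuximab tumour 4 lowest, and both sEV tumours lay between them. In CPM, counts scaled to the TMM-adjusted library size, the nuclear members summed to 15242 ± 1759 in the dinutuximab group and 14732 ± 465 in the sEV group (SD, n = 2 tumours per group). The difference between the means was smaller than the spread within the dinutuximab group.

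No member passed the test. In the edgeR quasi-likelihood test, with p-values adjusted by Benjamini-Hochberg over the 13823 genes tested, 0 of 78 tested nuclear members were lower and 0 higher at an adjusted p under 0.05, where 0% of all genes were called lower and 0% higher. At an unadjusted p under 0.05, 0 of the 78 were lower and 0 higher, while 3.10% of all genes were lower and 2.47% higher. The smallest unadjusted p was 0.0583, for Cox7c, with an adjusted p of 0.885. DESeq2 and limma-voom also called 0 of the 78, with 0 at an unadjusted p under 0.05. A two-sided exact permutation test of 2 tumours against 2 cannot give a p below 0.333 and was not run. The 5 nuclear members left out by the low-count filter were all tissue-restricted isoforms of complex IV, and are described with that complex.

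The fitted log2 fold changes, sEV over dinutuximab group, ran from -0.32 to 0.42 over the 78 nuclear members with a median of -0.05, and 51 were below 0. The median over all 13823 genes was 0.00. Values of the 2 groups did not overlap in 16 members that were lower with sEVs and 4 that were higher (Ndufb4, Ndufs3, Uqcrc2 and Atp5c1), while 16.5% of all genes did not overlap and were lower and 18.1% were higher. The members' median depended on which dinutuximab tumour was left out. Without dinutuximab tumour 3 the median was 0.09, with 58 of 78 above 0. Without dinutuximab tumour 4 it was -0.17, with 67 of 78 below 0. With 1 tumour left in the group, these values are given as effect sizes only.

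**Figure D1:**
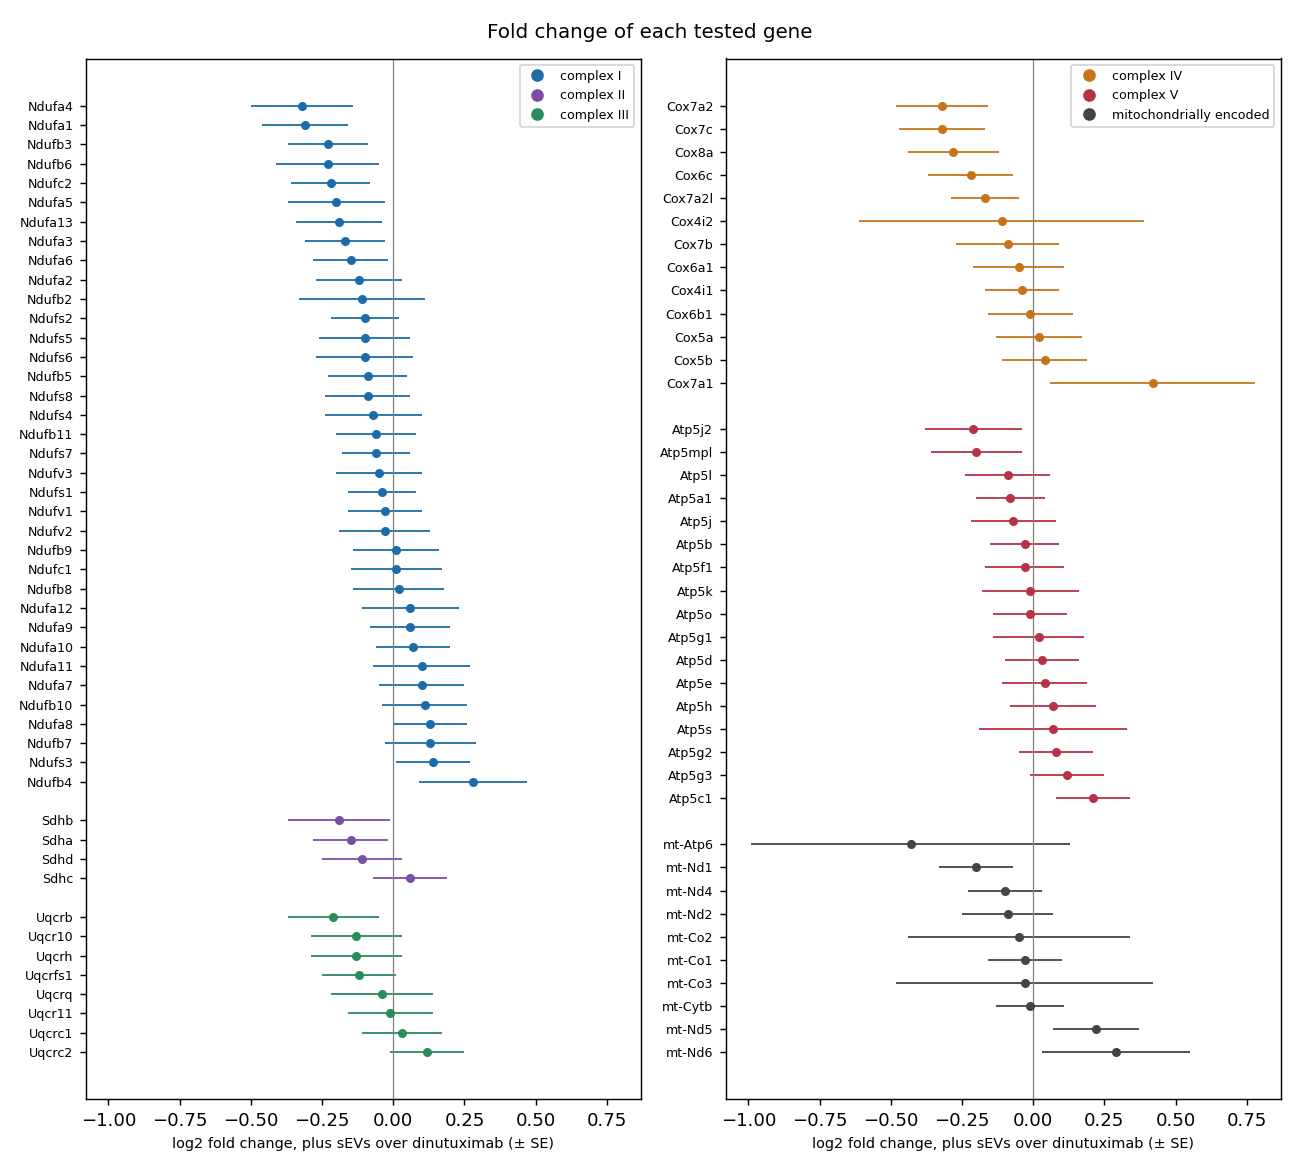
Fitted log2 fold change, sEV over dinutuximab group, of each tested member (points), with its standard error (bars), coloured by complex. The nuclear members lie between -0.32 and 0.42, and the wider bars belong to genes with few counts such as Cox4i2 and mt-Atp6.

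The differences between the 2 dinutuximab tumours were shared by most members. The log2 level in tumour 3 was above that in tumour 4 in 70 of 78 nuclear members, against 6689 of all 13823 genes. The median difference, tumour 3 minus tumour 4, was 0.30 over the members and -0.01 over all genes. Among the 4 libraries, dinutuximab tumour 3 held the highest value in 54 members and dinutuximab tumour 4 the lowest in 46, while sEV tumour 4 was highest in 0. The sEV tumours lay closer together, with a median difference (tumour 3 minus tumour 4) of 0.06 and 55 of 78 members above 0. In 64 of 78 members the difference within the dinutuximab group was larger in size than the fitted change between the groups, as it was in 7900 of 13823 genes.

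**Figure D2:**
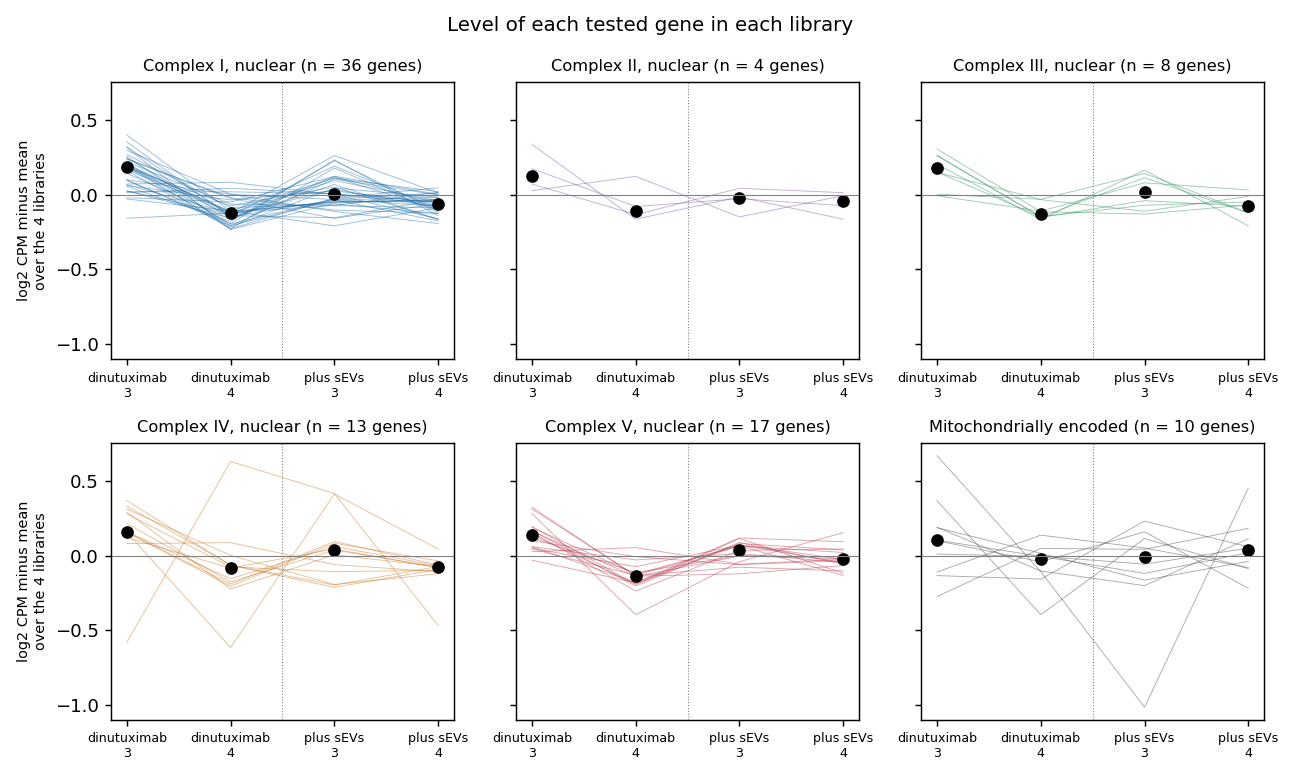
Log2 CPM of each tested member minus its mean over the 4 libraries, one line per gene and one panel per group of genes, with the median as a black point. In every nuclear panel the median is highest in dinutuximab tumour 3, and in all but complex IV, where sEV tumour 4 is as low, it is lowest in dinutuximab tumour 4.

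Complex I, which oxidises NADH, had 36 members, all tested. Their median log2 fold change was -0.06, 23 of 36 were below 0, and 8 did not overlap on the low side (16.5% of all genes) and 2 on the high side (18.1% of all genes). The summed level was 4274 ± 533 CPM in the dinutuximab group and 4098 ± 185 CPM in the sEV group (SD, n = 2). The 7 nuclear core subunits, which carry the flavin, the iron-sulphur clusters and the path to coenzyme Q, had a median of -0.04, and the 29 accessory subunits, which surround and stabilise the core, one of -0.07. Core and accessory subunits differed more in how far the 2 dinutuximab tumours stood apart, with medians of 0.10 and 0.30 for tumour 3 minus tumour 4.

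Where values are written as a pair against a pair, tumours 3 and 4 of the dinutuximab group come first and tumours 3 and 4 of the sEV group second. Ndufa1, an accessory subunit encoded on the X chromosome (chrX:37187588-37191163, minus strand), had the lowest p of complex I. It measured 73.2 and 59.7 CPM in dinutuximab tumours 3 and 4 and 55.1 and 52.1 CPM in sEV tumours 3 and 4. Both sEV tumours lay below both dinutuximab tumours, by less than the dinutuximab tumours differed from each other. The log2 fold change of Ndufa1 was -0.31 ± 0.15 (SE; edgeR adjusted p = 0.887).

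Ndufa4, counted here by its name in complex I and now regarded as a subunit of complex IV, measured 261 and 183 CPM in the dinutuximab group and 171 and 186 CPM in the sEV group. Its groups overlapped, and dinutuximab tumour 3 alone stood high. The log2 fold change of Ndufa4 was -0.32 ± 0.18 (SE; edgeR adjusted p = 0.892).

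On the high side, Ndufb4, an accessory subunit of the membrane arm, measured 9.86 and 10.1 CPM in the dinutuximab group and 13.2 and 11.1 CPM in the sEV group. The values of Ndufb4 did not overlap (log2 fold change 0.28 ± 0.19 SE, edgeR adjusted p = 0.909), and 37.0% of the windows of 50 bases along its transcript also occur in other annotated genes, so its counts are uncertain. Ndufs3, a core subunit of the arm that reaches into the matrix, measured 79.7 and 75.4 CPM in the dinutuximab group and 87.8 and 82.5 CPM in the sEV group. The values of Ndufs3 did not overlap either (0.14 ± 0.13 SE, edgeR adjusted p = 0.923), and 35.8% of its windows occur elsewhere. Ndufa2, the complex I member with the highest level per kilobase of transcript (563 CPM per kilobase on average), overlapped between the groups, with 365 and 305 CPM against 333 and 286 CPM.

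Complex II has 4 subunits and none from mitochondrial DNA. It also takes part in the citric acid cycle, where it turns succinate to fumarate. The median log2 fold change over the 4 was -0.13, and their summed level was 927 ± 101 CPM in the dinutuximab group and 862 ± 9.11 CPM in the sEV group (SD, n = 2). Sdha, which holds the flavin and the succinate site, measured 218 and 233 CPM in the dinutuximab group and 193 and 213 CPM in the sEV group. Sdha did not overlap between the groups (-0.15 ± 0.13 SE, edgeR adjusted p = 0.913), and it was the one complex II gene higher in dinutuximab tumour 4 than in tumour 3.

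Sdhb, which holds the iron-sulphur clusters, measured 286 and 202 CPM in the dinutuximab group and 224 and 202 CPM in the sEV group. Only dinutuximab tumour 3 was high, and the log2 fold change of Sdhb, -0.19 ± 0.18 (SE; edgeR adjusted p = 0.918), became 0.08 without that tumour. The membrane anchors overlapped between the groups: Sdhc stood at 203 and 176 CPM against 199 and 195 CPM, and Sdhd at 291 and 244 CPM against 253 and 245 CPM. Their log2 fold changes were 0.06 for Sdhc and -0.11 for Sdhd.

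Complex III had 8 members, with a median log2 fold change of -0.08 and 6 of 8 below 0. All 8 were higher in dinutuximab tumour 3 than in tumour 4. Uqcrb, a small subunit near the quinone site, measured 74.4 and 55.6 CPM in the dinutuximab group and 55.0 and 57.4 CPM in the sEV group. The 3 tumours other than dinutuximab tumour 3 lay between 55.0 and 57.4 CPM, and the log2 fold change of Uqcrb, -0.21 ± 0.16 (SE; edgeR adjusted p = 0.909), became 0.01 without tumour 3. Of the windows of Uqcrb, 43.2% occur in other annotated genes, so its counts are uncertain. Uqcrfs1, the Rieske iron-sulphur protein, measured 151 and 133 CPM against 126 and 135 CPM, and its groups overlapped.

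The large core proteins had fold changes above 0. Uqcrc2 measured 145 and 135 CPM in the dinutuximab group and 154 and 149 CPM in the sEV group, with no overlap (0.12 ± 0.13 SE, edgeR adjusted p = 0.941). Uqcrc1 measured 256 and 250 CPM against 282 and 235 CPM, so that the sEV tumours enclosed the dinutuximab tumours. Uqcr11 had the highest level per kilobase of the complex (535 CPM per kilobase), with 264 and 214 CPM against 257 and 218 CPM. Of its windows, 10.9% occur in other annotated genes.

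Complex IV had 18 members, 13 of them tested. Their median log2 fold change was -0.09, with 10 of 13 below 0, and 5 did not overlap on the low side (Cox6c, Cox7a2, Cox7a2l, Cox7c and Cox8a) and 0 on the high side, where 16.5% and 18.1% of all genes did not overlap. Over the 10 ubiquitous subunits alone the median was -0.07, and all 10 were highest in dinutuximab tumour 3. The summed level of the complex was 2705 ± 415 CPM in the dinutuximab group and 2510 ± 76.3 CPM in the sEV group (SD, n = 2).

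The lowest values belonged to small subunits that wrap the core. Cox7c measured 129 and 104 CPM in the dinutuximab group and 90.8 and 95.5 CPM in the sEV group, with no overlap (log2 fold change -0.32 ± 0.15 SE, edgeR adjusted p = 0.885). Of the windows of Cox7c, 53.0% occur in other annotated genes. Cox7a2 measured 223 and 165 CPM against 149 and 162 CPM, also without overlap (-0.32 ± 0.16 SE, edgeR adjusted p = 0.887), and 0% of its windows occur elsewhere.

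Cox8a, the ubiquitous form of the smallest of these subunits, measured 336 and 256 CPM in the dinutuximab group and 233 and 254 CPM in the sEV group. Its groups were separated by 256 against 254 CPM, a gap far smaller than the difference within the dinutuximab group (-0.28 ± 0.16 SE, edgeR adjusted p = 0.892). Cox5b, which binds zinc, overlapped, with 226 and 176 CPM against 215 and 198 CPM, and 25.9% of its windows occur elsewhere. Cox4i1, the subunit through which ATP regulates the enzyme, had the highest level per kilobase of the complex (687 CPM per kilobase), with 570 and 495 CPM against 541 and 496 CPM. Cox7a2l, which is not a subunit of the enzyme itself but a factor that joins complexes III and IV, measured 236 and 237 CPM against 214 and 207 CPM without overlap (-0.17 ± 0.12 SE, edgeR adjusted p = 0.909). Of the windows of Cox7a2l, 19.8% occur elsewhere.

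Several complex IV subunits have isoforms that other tissues use, and in these tumours the ubiquitous form carried nearly all counts. Cox4i2, a form of lung and of oxygen-sensing cells, had 23 and 51 counts in the dinutuximab group and 47 and 28 in the sEV group, where Cox4i1 had 12085 to 14616. Cox7a1, the muscle and heart form, had 72 and 40 counts against 88 and 75, where Cox7a2 had 3905 to 5716. Cox7a1 had the largest positive fold change among the nuclear members, 0.42 ± 0.36 (SE; edgeR adjusted p = 0.916), with overlapping groups at 2.81 and 1.64 CPM against 3.36 and 2.60 CPM.

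The muscle form Cox6a2 had 3 to 8 counts per library and the testis form Cox6b2 3 to 6, where Cox6a1 had 5789 to 7988 and Cox6b1 5894 to 7690. Cox7b2 had 1 count in dinutuximab tumour 3 and 0 in the other libraries, where Cox7b had 5110 to 7679. The muscle form Cox8b and the testis form Cox8c had 0 counts in every library. A count of 0 allows up to 3 counts, or 0.106 to 0.123 CPM at these depths, and these limits cover counting error only. Skeletal muscle markers, 6 of 10 of which were tested, were all below 0 in fold change with a median of -0.75, and summed to 12.4 and 13.2 CPM in the dinutuximab group and 8.63 and 5.20 CPM in the sEV group. The brown fat markers Ucp1 and Cidea had 0 counts in every library.

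Complex V had 17 members with a median log2 fold change of -0.01, 9 below 0 and 8 above. Atp5s, taken in by its name, is not a subunit of the enzyme and is left out of the parts below. Without Atp5s the median over 16 genes was -0.01, with 9 below 0 and 7 above. The summed level of the 17 members was 5799 ± 500 CPM in the dinutuximab group and 5777 ± 101 CPM in the sEV group (SD, n = 2). By part of the enzyme, the median was 0.03 over the 5 subunits of the catalytic F1 head, 0.08 over the 3 genes of the rotating c ring, -0.02 over the 4 of the peripheral stalk and -0.14 over the 4 accessory subunits of the membrane part. No difference between these parts was tested.

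Atp5c1, the gamma subunit that turns inside the head, was the member of complex V with the lowest p. It measured 422 and 380 CPM in the dinutuximab group and 468 and 460 CPM in the sEV group. Both sEV tumours lay above both dinutuximab tumours (0.21 ± 0.13 SE, edgeR adjusted p = 0.908). Atp5a1 and Atp5b, which form the ring of catalytic sites, were the most abundant nuclear members by CPM, with 1202 and 1225 CPM against 1134 and 1161 CPM for Atp5a1 and 1326 and 1247 CPM against 1284 and 1232 CPM for Atp5b.

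The c ring is built from 1 mature protein that 3 genes encode. Atp5g3 measured 398 and 337 CPM in the dinutuximab group and 404 and 392 CPM in the sEV group, and its groups overlapped (0.12 ± 0.13 SE, edgeR adjusted p = 0.944). Atp5g1 stood at 144 and 111 CPM against 136 and 123 CPM, and 11.6% of its windows occur in other annotated genes. Atp5g2 stood at 68.6 and 60.7 CPM against 69.6 and 67.5 CPM, and 87.4% of its windows occur in other annotated genes.

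In the stalk, Atp5h had the highest level per kilobase of the complex (692 CPM per kilobase), with 523 and 398 CPM against 481 and 484 CPM, so that both sEV tumours lay inside the range of the dinutuximab tumours. Of the windows of Atp5h, 47.9% occur in other annotated genes, so its counts and its rank are uncertain. Atp5j2 and Atp5mpl, small subunits of the membrane part, were the 2 members of lowest p on the low side. Atp5j2 measured 244 and 177 CPM against 179 and 186 CPM, and Atp5mpl 92.3 and 67.7 CPM against 70.4 and 69.2 CPM. Dinutuximab tumour 3 was the one high library for both, and without it the log2 fold changes of -0.21 for Atp5j2 and -0.20 for Atp5mpl each became 0.04.

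Subunit transcripts are short, and the difference between the 2 dinutuximab tumours went with transcript length across all genes. Lengths are those of the principal annotated transcript, the longest where transcripts ranked equally. Among protein-coding genes other than members, the median of dinutuximab tumour 3 minus tumour 4 was 0.24 for 226 genes of up to 700 bases, 0.25 for 469 genes up to 1000 bases, 0.16 for 1164 genes up to 1500 bases and -0.06 for 10373 longer genes. Among members the medians were 0.35 (29 genes), 0.24 (17), 0.27 (14) and 0.15 (18). Over the longer genes, 15 of 18 members were higher in dinutuximab tumour 3 against 4277 of 10373 other genes. These 18 include Ndufb2 and Atp5g1, with annotated transcripts of 4371 and 4715 bases, and Atp5s, which is not a subunit. Whether the tumours express transcripts of those lengths was not tested. The correlation of log2 length with this difference was -0.20 over the 78 members and -0.37 over 12232 other protein-coding genes, as a description across genes that share the same 2 libraries.

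Between the groups, members of up to 700 bases had a median log2 fold change of -0.10, with 21 of 29 below 0, and other genes of that length one of -0.06, with 131 of 226 below 0. The part of transcript length in the members' values was not tested. Genes that collect ribosomal RNA reads, 6 of 8 tested, summed to 61285 and 62875 CPM in the dinutuximab group and 49964 and 42000 CPM in the sEV group, so they separated the groups but not the 2 dinutuximab tumours.

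**Figure D3:**
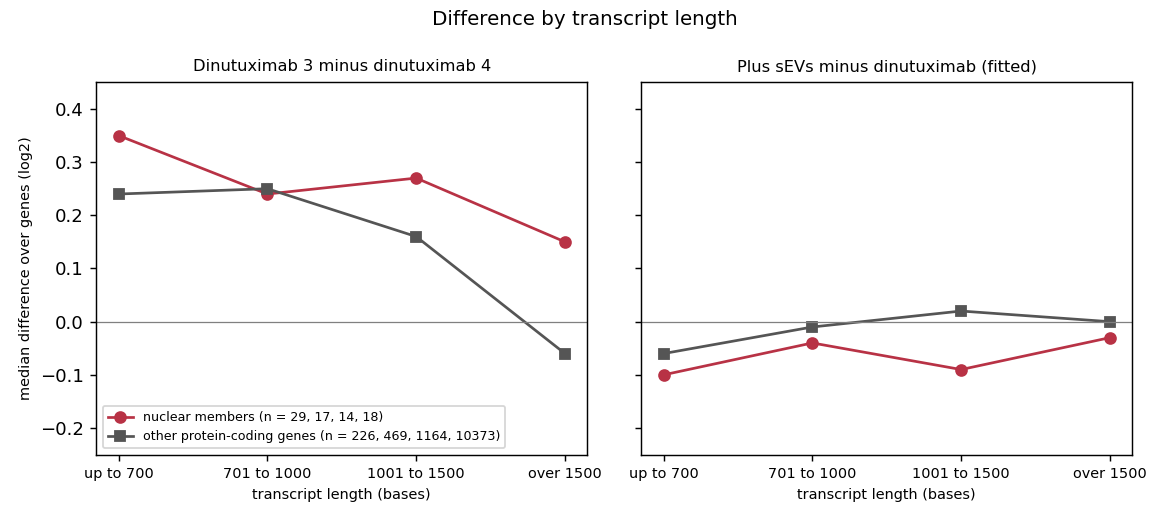
Median log2 difference over genes in 4 classes of transcript length, for dinutuximab tumour 3 minus tumour 4 (left) and for the fitted change of the sEV group over the dinutuximab group (right). On the left other protein-coding genes run from 0.24 in the shortest class to -0.06 in the longest, and members from 0.35 to 0.15.

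The 13 mitochondrially encoded genes took 0.678% and 0.704% of counts in dinutuximab tumours 3 and 4 and 0.663% and 0.709% in sEV tumours 3 and 4. Of the 13, 10 passed the filter, and edgeR and limma-voom called 0 of these and 0 of all 13823 genes. DESeq2 called 0 of the 8 to which it gave an adjusted p, where it called 31 of 12290 genes lower and 14 higher. None of these tools gave an unadjusted p under 0.05 to any of the 13, where edgeR had 3.10% of all genes lower and 2.47% higher. The median log2 fold change was -0.04 over the 10 tested genes, which include mt-Atp6, mt-Co2 and mt-Co3 with few counts. Over the 6 genes with more than 100 CPM in every library it was -0.06, with 5 below 0 and 1 above. By share of counts sEV tumour 4 was highest and sEV tumour 3 lowest. In TMM-scaled CPM the tested genes summed to 6951 and 7053 CPM against 6625 and 6922 CPM, so that on this scale both sEV tumours lay below both dinutuximab tumours, and the order depends on the scaling.

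Of the 6 genes with over 100 CPM in every library, mt-Nd1, a complex I core subunit, had the lowest p. It measured 1410 and 1252 CPM in the dinutuximab group and 1105 and 1206 CPM in the sEV group, without overlap (-0.20 ± 0.13 SE, edgeR adjusted p = 0.908). The complex I subunit mt-Nd5 was above 0 in fold change, with 415 and 519 CPM against 517 and 570 CPM and overlapping groups (0.22 ± 0.15 SE, edgeR adjusted p = 0.909). mt-Cytb, the electron carrier of complex III, measured 1925 and 1906 CPM against 1837 and 1979 CPM. Its measured level per kilobase was the highest of these 6 genes, at 1671 CPM per kilobase against 1308 for mt-Co1. Of the windows of mt-Co1, 51.1% occur in other annotated genes, and of those of mt-Cytb 0%. How reads with several matches were counted is not given, so the order of mt-Cytb and mt-Co1 is uncertain.

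Also overlapping were mt-Co1, with 1869 and 2218 CPM against 2090 and 1908 CPM, and mt-Nd2, with 690 and 563 CPM against 526 and 654 CPM. mt-Nd4 measured 635 and 589 CPM against 544 and 599 CPM, again with overlap. mt-Nd6, the one protein gene on the other strand of the mitochondrial DNA, had 95 and 89 counts against 125 and 122 and did not overlap (0.29 ± 0.26 SE, edgeR adjusted p = 0.918).

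The remaining 6 genes had few counts, and 5 of them are those with near-complete nuclear copies. mt-Co2, mt-Co3 and mt-Atp6 had between 9 and 32 counts per library, mt-Nd3 between 2 and 15, and mt-Nd4l between 0 and 3. Between 98.0% and 100% of the windows of 50 bases along these 5 genes occur in other annotated genes. The copies lie side by side on the minus strand of chromosome 1, between 24612407 and 24615565, and each aligned with its source gene over nearly its whole length: Gm28661 with mt-Co2 as shown above, Gm28437 with mt-Co3 with 0 mismatches in 783 bases, Gm10925 with mt-Atp6 with 0 in 678, Gm10222 with mt-Nd4l with 0 in 294 and Gm28438 with mt-Nd3 with 1 in 345. These 5 copies had 1 to 72 counts per library themselves.

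The genes with high counts have less copied sequence. Of the windows of mt-Co1, 51.1% occur elsewhere, of mt-Nd4 62.2%, of mt-Nd2 8.2%, of mt-Nd5 7.6%, and of mt-Cytb and mt-Nd1 0%. Part of mt-Nd4 has an exact copy, Gm28439 on chromosome 1, with 0 mismatches in 876 bases. Among the low-count genes mt-Atp8 had 1 to 3 counts and 0% of its windows in other annotated genes. The 204-base span of mt-Atp8 overlaps that of mt-Atp6. The search covered annotated transcripts only, so a copy in unannotated sequence would be missed. On chromosome 1 the copy of mt-Atp6 ends at 24614651 and that of mt-Co2 starts at 24614885. These are the genes on either side of mt-Atp8, and the sequence between their copies was not searched. How reads with more than 1 match were counted is not given in the sources used here and was not tested, so the counts of these 5 genes and of mt-Atp8 are not read as transcript levels.

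**Figure D4:**
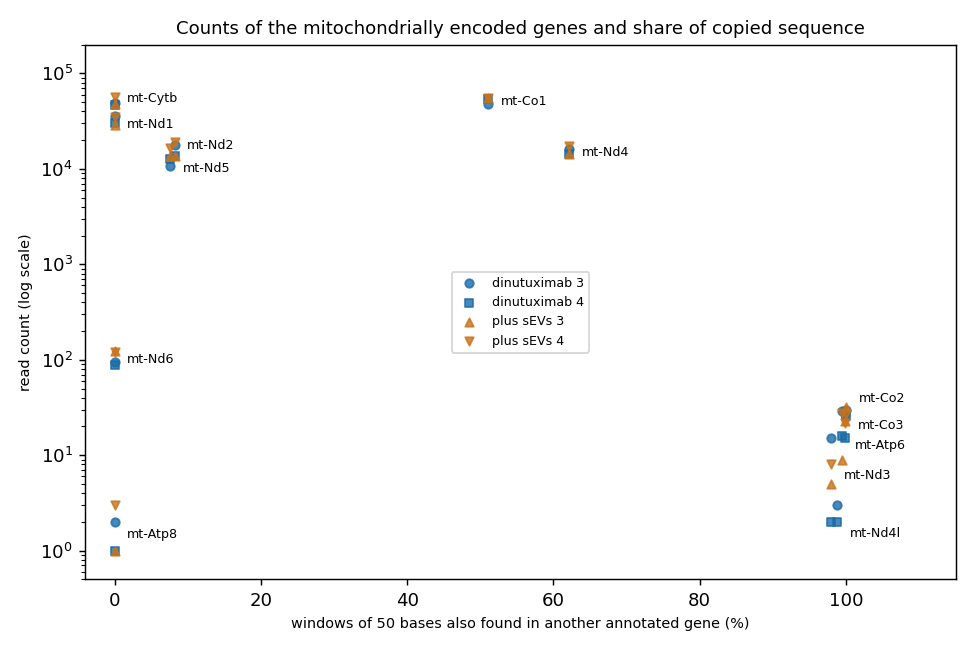
Read count of each mitochondrially encoded gene in each library (log scale) against the share of its 50-base windows that also occur in another annotated gene. The 5 genes at 98.0% to 100% have at most 32 counts, counts of 0 (mt-Nd4l in both sEV tumours) are not drawn, and mt-Co1 and mt-Nd4 have at least 14244 at 51.1% and 62.2%.

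Genes that work with the complexes were followed in lists of other mitochondrial functions, 7 lists with 239 genes that are no members. Of these, 229 were tested by edgeR and 0 passed. At an unadjusted p under 0.05 there were 2, Pdss1 higher and Lonp1 lower, where 2.47% of all genes were higher and 3.10% lower. DESeq2 and limma-voom also called 0, with 1 (Lonp1) and 2 (the same genes) at an unadjusted p under 0.05. Among 52 assembly factors, 51 tested, the median log2 fold change was 0.09, with 34 above 0, 14 without overlap on the high side and 2 on the low side (Cox14 and Higd1a), where 18.1% and 16.5% of all genes did not overlap. Cox17, the copper chaperone of complex IV, measured 2.03 and 1.68 CPM against 2.48 and 3.08 CPM (0.59 ± 0.32 SE, edgeR adjusted p = 0.888). Higd1a, a small protein induced by low oxygen that binds complex IV, measured 139 and 109 CPM against 96.4 and 103 CPM (-0.32 ± 0.15 SE, edgeR adjusted p = 0.887).

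The list of electron carriers, ADP/ATP carriers and related subunits had a median of -0.01 over 24 of 26 genes, with 1 at an unadjusted p under 0.05. That gene was Pdss1, which makes the side chain of coenzyme Q, with 17.9 and 14.7 CPM against 22.2 and 20.6 CPM (0.39 ± 0.17 SE, edgeR adjusted p = 0.885). Coq8a, which also serves coenzyme Q synthesis, was below 0 in fold change, with 43.5 and 28.8 CPM against 28.1 and 26.3 CPM (-0.41 ± 0.20 SE). Cycs, which encodes cytochrome c, measured 126 and 99.0 CPM against 98.3 and 91.4 CPM without overlap. Ndufa4l2, a relative of Ndufa4 that low oxygen induces, measured 5.81 and 5.00 CPM against 4.70 and 2.56 CPM without overlap (-0.58 ± 0.33 SE, edgeR adjusted p = 0.901). Overlapping were Atpif1, the inhibitor of complex V, with 264 and 189 CPM against 252 and 229 CPM, and the ADP/ATP carriers Slc25a4 (514 and 432 CPM against 470 and 466 CPM) and Slc25a5 (635 and 533 CPM against 621 and 472 CPM).

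For the citric acid cycle and its entry the median was 0.01 over 24 of 25 genes. Pdk1, the kinase that holds back pyruvate dehydrogenase, measured 198 and 207 CPM against 242 and 248 CPM without overlap (0.28 ± 0.12 SE, edgeR adjusted p = 0.885), and Pdhb, a subunit of that dehydrogenase, 76.2 and 77.6 CPM against 69.5 and 69.6 CPM. Regulators of mitochondrial biogenesis had a median of 0.03 over 9 of 13 genes, with Yy1 at 66.9 and 72.3 CPM against 78.0 and 80.5 CPM and Ppard at 56.6 and 70.7 CPM against 46.3 and 59.0 CPM. Ppargc1a, the coactivator that drives the programme in muscle and brown fat, had 0 counts in every library.

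Genes for mitochondrial DNA expression had a median of 0.04 over 25 genes. Lrpprc, which stabilises mitochondrial transcripts, measured 90.8 and 90.3 CPM against 68.5 and 79.0 CPM (-0.30 ± 0.13 SE, edgeR adjusted p = 0.885). Tfam, which packs mitochondrial DNA, stood at 67.7 and 68.3 CPM against 70.0 and 72.1 CPM, and Tefm, an elongation factor, at 15.4 and 14.2 CPM against 16.5 and 17.8 CPM.

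Fission, fusion and turnover genes had a median of -0.04 over 22 of 23, with 1 at an unadjusted p under 0.05. That gene was Lonp1, the matrix protease, with 196 and 202 CPM against 155 and 169 CPM (-0.30 ± 0.13 SE, edgeR adjusted p = 0.884). Yme1l1, a protease of the inner membrane, measured 133 and 116 CPM against 148 and 155 CPM (0.28 ± 0.13 SE, edgeR adjusted p = 0.887).

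Proteins of the mitochondrial ribosome, which translate the 13 mitochondrial genes, had a median of -0.01 over 76 of 77 genes, and like the subunits were higher in dinutuximab tumour 3 than tumour 4, in 71 of 76 with a median of 0.23. Mrpl34 stood at 86.0 and 73.7 CPM against 67.0 and 68.2 CPM and Mrps26 at 56.4 and 56.5 CPM against 68.0 and 65.2 CPM. Cytosolic ribosomal proteins, also encoded by short transcripts, had a median of -0.13 over 82 of 86 genes, with 74 below 0. Of the 82, 49 did not overlap on the low side, where 16.5% of all genes did, and 5 (Rps28, Rps29, Rpl23, Rpl30 and Rpl37a) were lower at an unadjusted p under 0.05, where 3.10% of all genes were. Their median of dinutuximab tumour 3 minus tumour 4 was 0.16.

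Marker lists of other cell types and of tissue state are given as values, and their part in the subunit levels was not tested. The 6 red blood cell genes were all higher with sEVs at an unadjusted edgeR p under 0.05, where 2.47% of all genes were. After adjustment 0 of the 6 passed (lowest edgeR adjusted p = 0.463). They summed to 35.1 and 21.3 CPM against 70.8 and 43.4 CPM. Some had few counts, such as Slc4a1 with 3 and 4 against 20 and 30. The 11 immediate early and heat shock genes were all below 0 in fold change and summed to 668 and 635 CPM against 532 and 533 CPM. The 5 endothelial genes summed to 116 and 123 CPM against 95.1 and 89.1 CPM, with all 5 below 0 in fold change. The 6 fibroblast genes were split, with a median log2 fold change of -0.08. Col3a1, Dcn and Pdgfra were higher in both sEV tumours (0.37, 0.54 and 0.28) and Col1a1, Col1a2 and Pdgfrb lower in both (-0.44, -1.57 and -0.94), and none of the 6 passed the edgeR test after adjustment. Their sum, 634 and 624 CPM against 891 and 743 CPM, is carried by Col3a1 and Dcn. The adipocyte marker Fabp4 stood at 28.1 and 32.8 CPM against 29.9 and 26.5 CPM, while Plin1 had 0 counts in every library. The keratinocyte markers Krt5 and Krt14 had 0 counts in both dinutuximab tumours and in sEV tumour 4, and 15 and 22 counts in sEV tumour 3. The 3 genes of GD2 synthesis summed to 145 and 165 CPM against 218 and 165 CPM.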

How the data were processed

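Messenger RNA was sequenced from flash-frozen tumours with an Illumina stranded kit, per the labels' protocols. Raw counts for each Ensembl gene were deposited by the authors, as 1 table of the series and 1 per sample, and all 173728 values were equal in both. STAR, SAMtools, HTSeq and mm10 stand in the submitters' processing notes. Tool versions, annotation release, counting mode and strandedness are not given in the sources used here. This leaves uncertain the counts for genes that share sequence with copies or overlap a gene on the other strand. Names, positions and transcripts came from GENCODE M21 (GRCm38), which named 42548 of 43432 IDs.

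Tests on the deposited counts used edgeR 4.0.16 in R 4.3.3 (filterByExpr at default settings, TMM factors of 0.976 to 1.02, quasi-likelihood F test with the group as its only term, Benjamini-Hochberg adjustment at 0.05 over 13823 genes). CPM values use TMM-scaled library sizes. DESeq2 1.42.0 and limma-voom 3.58.1, other scalings and filters, the tumour number as a block and leaving out each library were alternatives. The script was tested on simulated data. A list is described by its median, counts and range, with no test. Sequence sharing is the share of 50-base windows of a member's transcript found in transcripts of other annotated genes that do not overlap it.

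Genes named are, per complex, that of highest level per kilobase and the 2 of lowest unadjusted p per direction, complex II and isoform families in full, all mitochondrial genes, and per related list the gene of lowest p per direction plus genes picked by interest (further genes were picked as examples with their values known). The members, the lists and these rules were chosen with earlier results of these data known. Kinases, a binding protein and pseudogene-like names were removed from the list of cytosolic ribosomal proteins after values were seen. Some marker genes are not reported here.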

Additional observations from a re-analysis of the deposited data

How the results depend on the processing

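The count of 0 members called was the same under all 16 alternatives. The count of all genes called, 0 with all libraries, was 45 by DESeq2, 262 without a low-count filter and between 0 and 316 when 1 library was left out, the highest without sEV tumour 4 and 132 without sEV tumour 3. With the tumour number as a replicate block it was 67. The labels do not say what the numbers 3 and 4 mean, and whether they pair the tumours was not tested. The within-group differences of tumours 3 and 4 correlated at 0.09 between the groups, and at -0.37 over the 78 nuclear members. These correlations run across genes of the same few libraries, so they cannot decide whether the tumours are paired. The block called 0 members, with 3 of 78 nuclear members (Ndufa1, Cox7a2 and Cox7c) lower at an unadjusted p under 0.05. In the same fit 674 of all 13823 genes were lower at that level. Without the low-count filter 3 of 81 nuclear members were lower at an unadjusted edgeR p under 0.05, where 782 of 22003 genes were.

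The medians of the complexes moved when dinutuximab tumour 3 or 4 was left out. With 1 library left out in turn they ran from -0.19 to 0.09 for complex I, from -0.17 to 0.05 for complex II, from -0.21 to 0.09 for complex III, from -0.17 to 0.07 for complex IV, from -0.13 to 0.13 for complex V and from -0.15 to 0.02 for the mitochondrially encoded members. Each highest value came without dinutuximab tumour 3. With total-count scaling the medians ran from -0.09 for complex II to 0.02 for complex V, and that of all genes was 0.04. Counting Ndufa4 with complex IV, an alternative chosen after seeing the data, gave -0.06 for complex I and -0.10 for complex IV.

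Of 928 values for 62 named genes, 902 kept their direction or moved by less than their standard error, and 22 moved by more. The other 4, from genes whose main fold change was larger than its standard error, changed sign, all without dinutuximab tumour 3. Genes with a smaller main fold change were judged by how far they moved, so their changes of sign are not counted. Over the libraries left out in turn, Uqcrb ran from -0.40 to 0.01, Atp5j2 from -0.42 to 0.04, Atp5mpl from -0.40 to 0.04 and Sdhb from -0.42 to 0.08. With a lone library in a group, its spread is taken from the other group. The depth of 24452699 to 28187573 counts leaves the low-count isoforms and copied mitochondrial genes imprecise.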
